A study of Homo sapiens with 8 samples.

Results

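The 10 genes described here encode the E2F transcription factors E2F1 to E2F6, the pocket proteins RB1, RBL1 and RBL2, and the forkhead factor FOXM1. They were chosen by gene name, and each has 1 row among the 16525 genes of the deposited expression table. The rule reads names only. E2F factors bind DNA together with a DP partner at promoters of genes for DNA replication and cell division. E2F1, E2F2 and E2F3 are known as activators, whereas E2F4, E2F5 and E2F6 are known as repressors. Pocket proteins hold E2F factors in check until cyclin-dependent kinases phosphorylate them, and RBL1 and RBL2 join E2F4 or E2F5 and the MuvB core in the DREAM complex, which silences cell cycle genes in resting cells. FOXM1 acts later in the cycle, together with MuvB and MYBL2, on genes for mitosis, and mature beta cells divide rarely.

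The cells, EndoC-βH5, are a human beta-cell line. The line was made from fetal pancreas, immortalized with SV40 large T antigen and telomerase, and later freed of both transgenes. Large T antigen is a viral protein that binds pocket proteins. RNA was sequenced from 4 untreated control cultures (CTRL) and from 4 cultures exposed (CYT) for 48 h to IFNγ at 1000 U/mL, TNFα at 1000 U/mL and IL-1β at 50 U/mL. All libraries come from this 1 line, which was bought as frozen stock, and nothing in the labels says that the cultures were grown apart, so that p-values measure the spread between these libraries only.

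Values are CPM, reads on a gene scaled to a common library total, and totals before scaling ranged from 46767972 to 51145634 reads. 1 read was worth 0.0196 to 0.0214 CPM, and the 10 genes had between 60 and 5155 reads in every library. By the prefix of their column names the libraries form 4 pairs of a control with a cytokine library, labelled A to D in what follows. Columns of pairs A and B carried the number 21 and columns of pairs C and D the number 22, whose meaning is not given. These series stood apart in both conditions, for example in the hormone gene SST, at 1761 and 2143 CPM in controls A and B against 615 and 355 CPM in controls C and D. Of 11 beta-cell markers all were listed, with INS at 1158 to 2905 CPM in controls. With cytokines 7 were called lower and none higher, against 17.5% and 9.52% of all genes. With scaling by the trimmed mean of M-values 5 were called lower and 1 higher. INS, IAPP, NKX6-1 and PCSK1 were not called on the CPM scale, and of these all but INS had higher cytokine means. Of 5 markers of other islet endocrine cells all were listed, with SST at 355 to 2143 CPM and GCG at 19.8 to 222 CPM in controls. None of these 5 was called on the CPM scale when the pairs were not taken into account. Of the exocrine markers 3 of 6 were in the table (KRT19 at 79.9 to 159 CPM in controls, SOX9, and CPA1, which was called lower). Of the mesenchymal ones 2 of 5 were (COL1A1 and PDGFRB), and none of 3 immune and none of 3 endothelial markers was listed. The part of these markers in the results was not tested. The interferon-responsive IRF1 stood at 10.3 to 12.8 CPM in controls and 635 to 977 CPM in cytokine libraries. In bulk RNA, fewer cells of a type and less RNA per cell cannot be told apart.

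Promoters of the family are shown first, because E2F genes are textbook targets of E2F factors and the members with matching letters did not all change alike. RefSeq promoter windows (GRCh38.p14, 250 bases before to 50 after the start) were at hand for 8 of the 10 genes, all but E2F5 and FOXM1. The window listed for RB1 lies 172724 bases from the GENCODE start of the gene and is not described. The E2F motif was searched on both strands as TTTCCCGC, TTTCGCGC, TTTGCCGC, TTTGGCGC, TTCCCGCC, TTTGGCGG or TTTCGCGG, which overlap one another in part, and matches are in capitals below. The 120 bases just before the start are given 5′ to 3′ on the gene's strand, for E2F1 at chr20:33686386-33686505 (minus strand), E2F2 at chr1:23531234-23531353 (minus), E2F3 at chr6:20401759-20401878 (plus), RBL1 at chr20:37095998-37096117 (minus) and, as a member without a match, E2F4 at chr16:67192035-67192154 (plus).
E2F1: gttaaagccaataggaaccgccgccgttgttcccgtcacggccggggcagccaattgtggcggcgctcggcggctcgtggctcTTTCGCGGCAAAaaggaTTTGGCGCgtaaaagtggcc
E2F2: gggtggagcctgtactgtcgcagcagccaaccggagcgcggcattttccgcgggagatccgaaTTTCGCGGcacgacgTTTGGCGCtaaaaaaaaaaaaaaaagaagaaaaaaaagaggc
E2F3: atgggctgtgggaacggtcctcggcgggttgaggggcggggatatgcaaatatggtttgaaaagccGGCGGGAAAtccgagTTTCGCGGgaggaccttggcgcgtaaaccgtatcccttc
RBL1: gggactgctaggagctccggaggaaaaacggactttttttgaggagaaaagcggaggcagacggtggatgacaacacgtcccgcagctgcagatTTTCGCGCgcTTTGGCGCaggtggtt
E2F4: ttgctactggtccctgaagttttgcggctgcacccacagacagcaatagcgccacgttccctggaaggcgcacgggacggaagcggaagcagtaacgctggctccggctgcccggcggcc

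E2F1 held 3 matches between positions -37 and -13 from its start, of which the first and second overlap. E2F2 held 2 matches, at -57 to -50 and -42 to -35. E2F3 held 3 matches between -54 and -32, the first and second overlapping, and RBL1 held 2, at -26 to -19 and -16 to -9. Of 35116 RefSeq windows of the same length, 6.54% held at least 1 match and 1.11% held 2 or more. The windows of E2F4 and E2F6 held none. Nor did both windows of RBL2, which lie 494 and 1642 bases after its GENCODE start. A second window of E2F3, 1708 bases after its GENCODE start, also held none. No window at the GENCODE start of RBL2 was searched. A match is a run of letters and not a measured binding site, and the part of the letters in the changes was not tested. CCAAT, the letters of the CCAAT box, occurred 3 times in the E2F1 window and 4 times in that of E2F3, against at least once in 34.6% of all windows. The letters TTTGAA or TTCGAA of the CHR element, a DREAM and MuvB binding sequence, occurred once in the first window of E2F3 and once in that of RBL2, after the start, and in 16.4% of windows. The interferon-activated element GAS, searched as TTCNNNGAA, was in 7.66% of windows and in none of those described here.

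**Figure D1:**
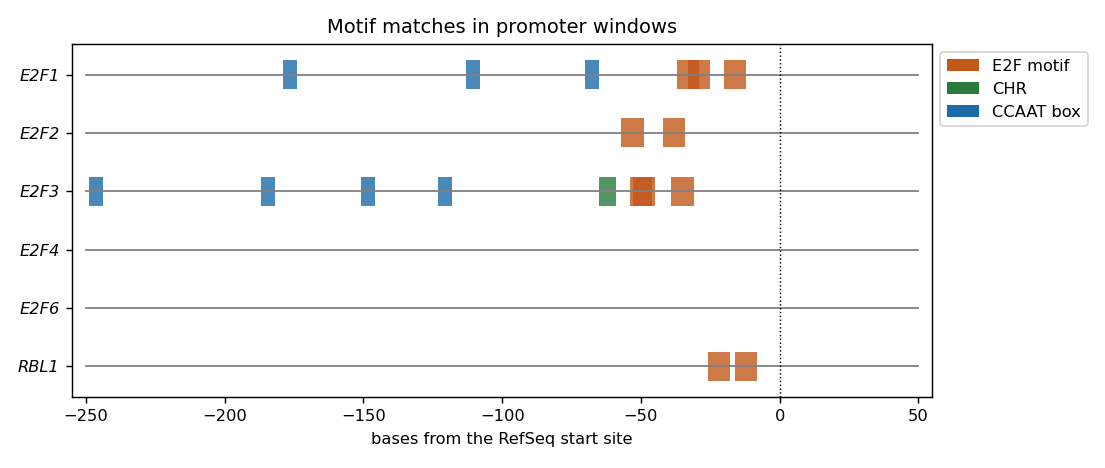
Matches to the E2F motif, the CHR element and the CCAAT box in the promoter windows whose start lies within 100 bases of the GENCODE start. The x axis gives the distance in bases from the RefSeq start. E2F1, E2F2, E2F3 and RBL1 hold 2 or 3 E2F matches just before the start, and E2F4 and E2F6 hold no match to any of these motifs.

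The question of the comparison is how cytokines changed the levels of these genes. E2F1 and E2F2 fell, with cytokine means at 0.325 and 0.351 of the control means, and E2F5 rose 2.07-fold. FOXM1 fell to 0.438 of the control mean, a call that was lost with another scaling in the fit without pairs. In the main fit, which took no account of the pairs, E2F3, E2F4, E2F6 and RB1 did not pass the test. RBL1 and RBL2 had adjusted p-values below 0.05 and differences of opposite sign under the fold minimum. A gene was called where limma on log2(CPM + 0.1), adjusted by Benjamini-Hochberg over all 16525 genes, gave an adjusted p below 0.05 and an absolute log2 fold change above 0.5.

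By this rule 4 of the 10 genes were called, against 27.0% of all genes. Of the members 3 were lower, against 17.5% of all genes, and 1 was higher, against 9.52%. With the adjusted p alone 6 of 10 passed, against 30.8% of all genes. Control and treated ranges, of 4 libraries each, were apart for 5 of 10 members (E2F1, E2F2, E2F5, RBL1 and RBL2), against 32.8% of all genes. Over all genes the median difference was -0.17 (log2) on the CPM scale, and with scaling by the trimmed mean of M-values (TMM) it was -0.02. TMM therefore shifts each member upward by about the same amount. With TMM, 4 of 10 members were also called, against 24.7% of all genes, but FOXM1 was replaced by RBL1. Among all genes, calls split into 2896 lower and 1574 higher on the CPM scale and 1933 lower and 2154 higher with TMM.

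**Figure D2:**
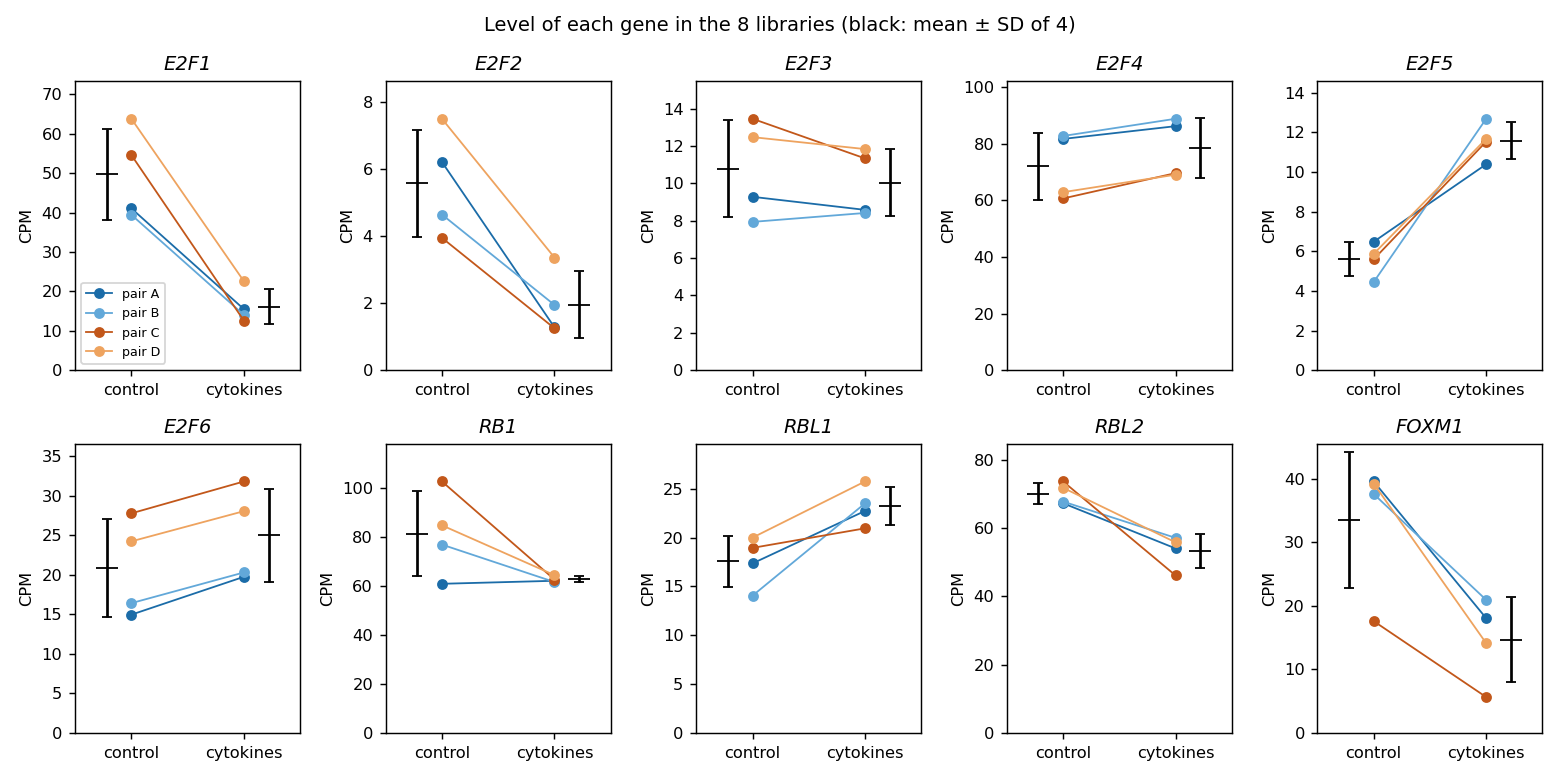
CPM of the 10 genes in each library, with lines joining the control and cytokine library of a pair and black bars giving mean ± SD of 4 libraries. E2F1 and E2F2 lie lower in every cytokine library than in any control library, E2F5 and RBL1 lie higher in every one, and FOXM1 is lower within every pair although its groups overlap.

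Among the activators, E2F1, which drives entry into S phase and can also induce apoptosis genes (chromosome 20, 33675683 to 33686404, minus strand, GRCh38), stood at 41.1, 39.5, 54.6 and 63.8 CPM in controls A to D. In cytokine libraries A to D it stood at 15.5, 14.03, 12.6 and 22.6 CPM. Every cytokine library was below every control library. Means were 49.7 ± 11.6 and 16.2 ± 4.44 CPM (SD, n = 4 each). On the log2 scale E2F1 changed by -1.62 (SE 0.21, 95% interval -2.08 to -1.16, limma adjusted p = 0.000219). The exact permutation test of 4 against 4 libraries gave p = 0.0286, the smallest this design allows. Only 1.65% of all genes had a lower log2 fold change.

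E2F2, an activator closely related to E2F1 (chromosome 1, 23506430 to 23531220, minus strand), had fewer reads, down to 60 in a library. It stood at 6.20, 4.64, 3.94 and 7.49 CPM in controls A to D and at 1.28, 1.94, 1.25 and 3.36 CPM in cytokine libraries A to D. Again the groups did not overlap, although cytokine library D came close to the lowest control. The log2 fold change was -1.53 (SE 0.32, 95% interval -2.24 to -0.82, limma adjusted p = 0.00482), and the change within pairs ranged from -2.19 in A to -1.13 in D.

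E2F3, the remaining activator (chromosome 6, 20401906 to 20493715, plus strand), stood at 9.28, 7.94, 13.5 and 12.5 CPM in controls and at 8.58, 8.41, 11.3 and 11.8 CPM in cytokine libraries. The libraries ordered by series, with C and D above A and B in both conditions, rather than by treatment. Its log2 fold change was -0.09 (95% interval -0.53 to 0.36, limma adjusted p = 0.781) on the CPM scale and 0.06 with TMM, so that its sign depends on the scaling. Of the activators with E2F letters in the promoter, E2F1 and E2F2 were called and E2F3, whose second window held no match, was not. Counts per gene do not separate the starts of E2F3.

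Among the repressors, E2F4, the main partner of RBL1 and RBL2 in resting cells (chromosome 16, 67192169 to 67198918, plus strand), stood at 81.7, 82.7, 60.6 and 62.9 CPM in controls. In cytokine libraries A to D it stood at 86.2, 88.8, 69.6 and 69.0 CPM. Each cytokine library was slightly above its paired control, by 0.08 to 0.20 on the log2 scale, but the groups overlapped. The log2 fold change of 0.13 (95% interval -0.20 to 0.45, limma adjusted p = 0.554) was smaller than the gap between the series, whose control means were 82.2 CPM in A and B and 61.7 CPM in C and D. With the pairs as a block the limma adjusted p was 0.0864. In edgeR with TMM and the block the log2 fold change was 0.28 (adjusted p = 0.00184), under the fold minimum.

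E2F5, a repressor that also works with RBL2 (chromosome 8, 85177225 to 85217158, plus strand), was the 1 member called higher. It stood at 6.48, 4.45, 5.59 and 5.87 CPM in controls A to D. In cytokine libraries A to D it stood at 10.4, 12.7, 11.5 and 11.7 CPM, all above the controls. Means were 5.60 ± 0.852 and 11.6 ± 0.940 CPM (SD, n = 4 each). On the log2 scale E2F5 rose by 1.04 (SE 0.16, 95% interval 0.69 to 1.39, limma adjusted p = 0.000662). In GENCODE 29, 16.4% of its exon bases are shared with C8orf59 on the opposite strand. C8orf59 had 13.3 ± 3.70 CPM in controls and 13.1 ± 2.97 CPM in cytokine libraries (SD, n = 4 each).

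E2F6, a repressor that does not bind pocket proteins and works in a Polycomb complex with MGA and MAX (chromosome 2, 11444375 to 11466177, minus strand), stood at 14.97, 16.4, 27.8 and 24.2 CPM in controls. In cytokine libraries it stood at 19.8, 20.3, 31.8 and 28.1 CPM. It was above its paired control in 4 of 4 pairs, and the series differed more than the treatments. Its log2 fold change was 0.28 (95% interval -0.23 to 0.78, limma adjusted p = 0.393).

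Per length, the 6 E2F transcripts could be set beside each other. On the TPM scale, which divides by exon length, E2F1 and E2F4 were the most abundant in controls, at 78.1 ± 28.7 and 75.8 ± 2.66 TPM (SD, n = 4 each). Their order turned with the series. E2F1 stood at 55.4 and 53.0 TPM and E2F4 at 76.9 and 77.6 TPM in controls A and B. In controls C and D E2F1 stood at 92.6 and 111 TPM and E2F4 at 71.8 and 76.6 TPM. With the longest GENCODE transcript as the length, E2F4 made up 47.8% ± 9.62 and E2F1 34.1% ± 6.40 of the 6 in controls (SD, n = 4 each). E2F6 followed at 20.3 ± 8.48 TPM and E2F3 at 8.21 ± 3.02 TPM, whereas E2F2 (3.94 ± 1.43 TPM) and E2F5 (3.63 ± 0.785 TPM) were the lowest and lay within each other's spread. In cytokine libraries E2F4 stood first at 89.8 ± 2.47 TPM, E2F1 (27.2 ± 10.1 TPM) and E2F6 (26.0 ± 8.86 TPM) lay within their spread, and E2F5 at 8.11 ± 1.16 TPM lay beside E2F3 at 8.20 ± 2.41 TPM. The E2F4 groups, which overlapped in CPM, were apart in TPM, at 71.8 to 77.6 in controls and 86.8 to 92.8 in cytokine libraries. In each pair, the same CPM gave more TPM in the cytokine library than in the control. RB1 in pair A, for example, had 60.9 CPM and 31.8 TPM in the control and 62.1 CPM and 35.8 TPM with cytokines. The difference of E2F4 in TPM was not tested.

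E2F1 made up 40.1% ± 6.52 of the summed TPM of E2F1 to E2F6 in controls and 16.6% ± 4.06 in cytokine libraries (SD, n = 4 each). The share of E2F4 was 41.3% ± 9.33 in controls and 56.5% ± 7.13 with cytokines, and that of E2F5 was 1.92% ± 0.294 and 5.04% ± 0.407. The sum of the 6 was 190 ± 39.7 TPM in controls and 161 ± 19.6 TPM with cytokines, ranges that overlapped. The ratio of summed E2F1 to E2F3 over summed E2F4 to E2F6 was 0.70, 0.65, 1.02 and 1.20 in controls A to D and 0.26, 0.24, 0.26 and 0.42 in cytokine libraries A to D. These shares follow from the gene values above and are given without a test.

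**Figure D3:**
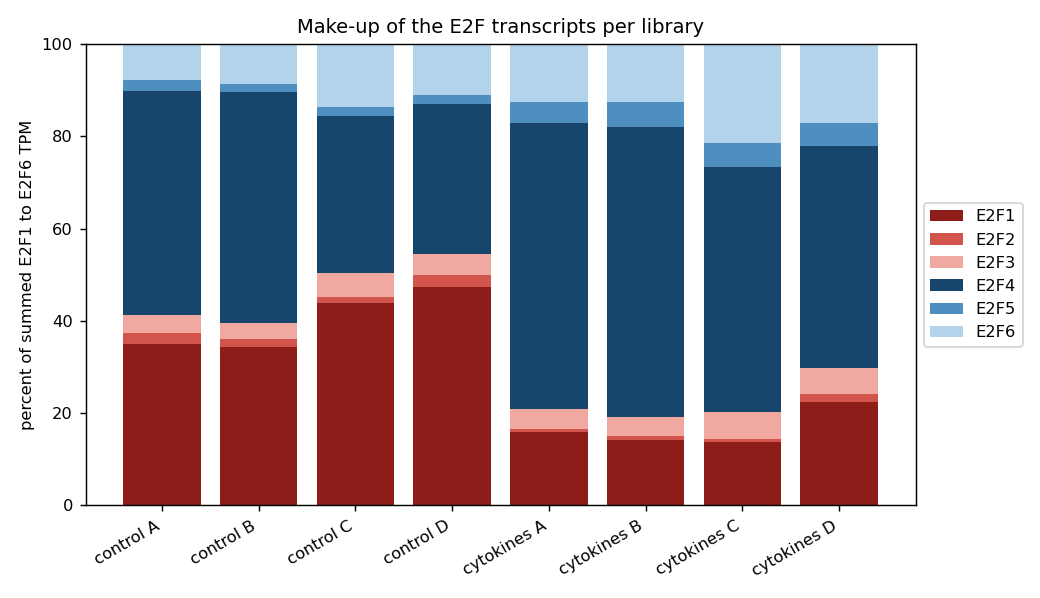
Share of each E2F gene in the summed TPM of E2F1 to E2F6, in percent, for the 8 libraries (bars stacked to 100, red activators, blue repressors). The E2F1 share lies between 34.2% and 47.4% in controls and between 13.7% and 22.5% in cytokine libraries.

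Of the pocket proteins, RB1, the retinoblastoma protein that restrains the activator E2Fs (chromosome 13, 48303726 to 48599436, plus strand), stood at 60.9, 76.9, 103 and 84.7 CPM in controls. In cytokine libraries A to D it stood at 62.1, 61.6, 62.6 and 64.4 CPM, a far narrower range that overlapped the controls at pair A. The log2 fold change was -0.35 (95% interval -0.68 to -0.02, limma adjusted p = 0.101), and the change within pairs went from 0.03 in A to -0.71 in C.

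RBL1, or p107, a pocket protein that is itself known as an E2F target (chromosome 20, 36996349 to 37095995, minus strand), stood at 17.4, 14.1, 18.95 and 20.002 CPM in controls A to D. In cytokine libraries A to D it stood at 22.7, 23.5, 20.96 and 25.8 CPM, all above the controls. The log2 fold change was 0.41 (SE 0.14, 95% interval 0.10 to 0.72, limma adjusted p = 0.0492), under the fold minimum. With TMM it was 0.56 (adjusted p = 0.00648) and was called. On the CPM scale the adjusted p was above 0.05 without control A or B or cytokine library A, B or D (0.0805 to 0.138), with a pseudocount of 1 (0.0501), without the intensity trend (0.0649) and in edgeR without TMM (0.0532). RBL1 and E2F1 both hold E2F letters close to their starts. In the main fit RBL1 was not called, although its values lay higher with cytokines, and E2F1 was called lower. The part of the letters in these values was not tested.

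RBL2, or p130, the pocket protein most tied to resting cells (chromosome 16, 53433977 to 53491649, plus strand), stood at 67.2, 67.7, 73.6 and 71.7 CPM in controls. In cytokine libraries it stood at 54.0, 57.1, 46.1 and 55.8 CPM, all below the controls. The log2 fold change of -0.40 (SE 0.11, 95% interval -0.64 to -0.16, limma adjusted p = 0.0182) did not reach the fold minimum, and with TMM it was -0.25 (adjusted p = 0.106). Of its exon bases 8.33% are shared with AKTIP on the opposite strand, which had 9.67 ± 2.15 CPM in controls and 10.4 ± 0.794 CPM in treated libraries (SD, n = 4 each). Per length, the RBL1 share of the 3 pocket proteins was 10.04% to 13.5% in controls and 18.04% to 19.7% with cytokines, while RB1 made up 49.7% ± 4.45 and 46.6% ± 2.17 (SD, n = 4 each).

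**Figure D4:**
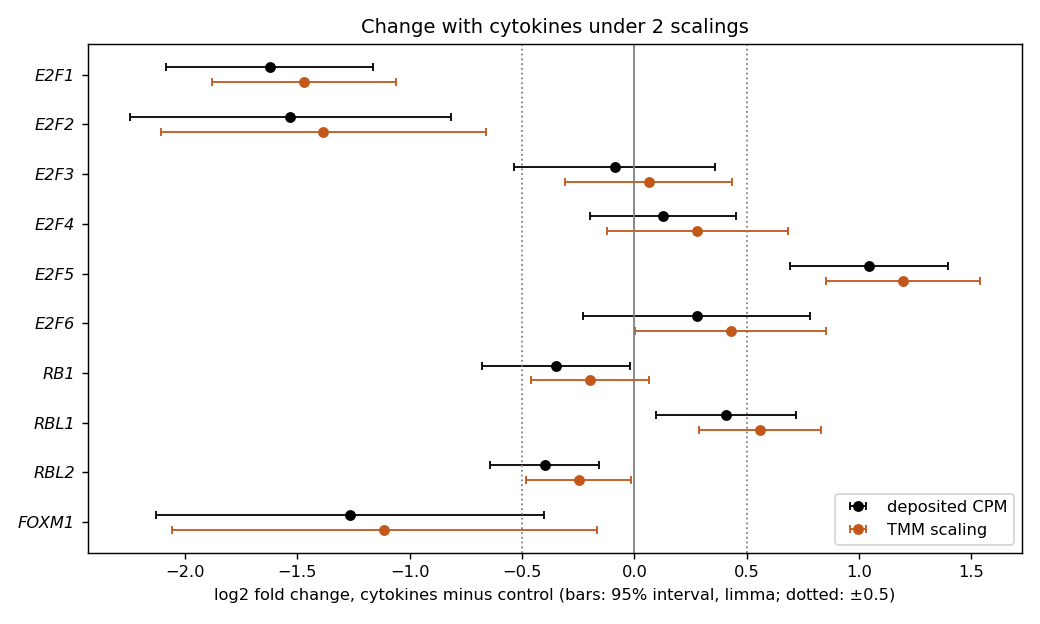
Log2 fold change of each gene, cytokines minus control, with its 95% interval from limma, on deposited CPM (black) and with TMM scaling (orange). Dotted lines mark the fold minimum of 0.5. The interval of E2F3 spans 0 under both scalings, and RBL1 crosses the fold minimum only with TMM, at 0.56.

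FOXM1, the activator of mitotic genes (chromosome 12, 2857681 to 2877155, minus strand), stood at 39.5, 37.6, 17.6 and 39.2 CPM in controls A to D. In cytokine libraries A to D it stood at 18.03, 20.9, 5.64 and 14.1 CPM. Control C was far below the other controls and below the cytokine libraries of pairs A and B, so that the groups overlapped, but within pairs FOXM1 was lower in 4 of 4. The log2 fold change was -1.27 (SE 0.39, 95% interval -2.13 to -0.40, limma adjusted p = 0.0310), and the exact permutation test gave p = 0.0857. With the pairs as a block the adjusted p was 4.01e-07. The call was lost with TMM (-1.11, adjusted p = 0.0747) and without control A, B or D or cytokine library D (adjusted p from 0.0569 to 0.0792). ITFG2, which shares 15.9% of the FOXM1 exon bases on the opposite strand, had 26.2 ± 4.10 CPM in controls and 25.02 ± 3.37 CPM in treated libraries (SD, n = 4 each).

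With the pairs as a block, the same 4 members were called, and 8 of 10 had an adjusted p below 0.05, against 58.8% of all genes. E2F6 (adjusted p = 0.00949), RB1 (0.00518), RBL1 (0.00273) and RBL2 (0.000451) were among them, below the fold minimum. Whether a change differed between the 2 series was tested by an interaction term in limma. None of the 10 members passed, against 0.0303% of all genes, and at an unadjusted p below 0.05 the count of members was 0, as it was with edgeR. The lowest unadjusted p was 0.0647, for RB1. The 2 pairs in each series leave wide intervals, so that differences between the series are not shown to be absent.

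Of the genes around the family, 4 of the 5 remaining E2F and DP genes were listed. The DP partners TFDP1 and TFDP2, without which E2F1 to E2F6 bind DNA poorly, were called lower. TFDP1 had 152 ± 31.6 CPM in controls and 100.3 ± 10.2 CPM in treated libraries (SD, n = 4 each). It fell by 0.59 on the log2 scale (limma adjusted p = 0.0160), and the value with TMM was -0.43, under the fold minimum. TFDP2 fell by 0.73 on the log2 scale (limma adjusted p = 0.00122). The atypical repressor E2F7 had 6.10 ± 2.30 CPM in controls and 5.10 ± 1.77 CPM in treated libraries (SD, n = 4 each) and was not called. E2F8, the other atypical repressor, had 1.56 ± 0.740 CPM in controls and 0.936 ± 0.399 CPM in treated libraries (SD, n = 4 each) and a log2 fold change of -0.66, which was not called without a block (limma adjusted p = 0.216) and was called with the pairs as a block (0.0469).

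In the MuvB core and its MYB partners, 3 of 7 were called lower and 1 higher. MYBL2, which takes MuvB to late cell cycle genes, fell by 1.13 on the log2 scale (limma adjusted p = 0.00557), MYBL1 fell by 0.99 and the core subunit LIN9 fell by 0.89. LIN52, the MuvB subunit that RBL1 and RBL2 dock on, rose by 0.72 (limma adjusted p = 0.0133). RBBP4, a histone chaperone with the highest CPM of the 7, had 150 ± 20.7 CPM in controls and 110 ± 8.19 CPM in treated libraries (SD, n = 4 each) and missed the fold minimum.

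Upstream of the pocket proteins, 5 of 9 listed G1 and S cyclins and kinases were called lower and 1 higher, with a median log2 fold change of -0.61. CCNA2, the S phase cyclin, fell by 1.48, CCNE1, which starts S phase with CDK2, fell by 0.86 and CDK2 by 0.70 on the log2 scale. The D-type partners CCND3 (47.3 ± 10.4 and 45.2 ± 7.63 CPM) and CDK4 (54.0 ± 9.70 and 55.7 ± 9.22 CPM, SD, n = 4 each) were not called. CCND1, another D-type cyclin and the 1 gene called higher, had 5 reads in all over the 4 control libraries. It had 284 over the 4 cytokine libraries, a ratio of 57.4 with a 95% counting interval of 24.3 to 178. Among the libraries used, only the cytokine group (1.05 to 2.25 CPM) exceeded the 0.5 CPM needed for listing. A gene as low in both groups would not be listed, and the ratio is given as a description.

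Of 7 CDK inhibitors, CDKN1A rose, CDKN2B and CDKN1C fell and 4 were not called; CDKN1C was not called with TMM (-0.51, limma adjusted p = 0.0659). CDKN1A, or p21, which blocks CDK2, stood at 95.9, 84.01, 129 and 125 CPM in controls A to D and at 168, 167, 340 and 246 CPM in cytokine libraries A to D (log2 fold change 1.04, limma adjusted p = 0.00703). CDKN2B, or p15, which blocks CDK4, had 71.4 ± 10.9 CPM in controls and 22.5 ± 4.35 CPM in treated libraries (SD, n = 4 each) and fell by 1.67 on the log2 scale (limma adjusted p = 2.13e-05). The inhibitors thus did not move in 1 direction.

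Counts of chromatin partners called stand beside 27.0% of all genes called, or 24.7% with TMM. Of 12 pocket protein corepressors 1 was called on the CPM scale and 2 with TMM. The 1 on the CPM scale was RBBP8, a DNA end resection factor that binds RB1. RBBP8 rose by 1.498 on the log2 scale (limma adjusted p = 0.00271). The chromatin remodellers SMARCA2 and SMARCA4 and the methyltransferase DNMT1, the 3 genes of highest CPM in the list, were not called. In the E2F6 complex 2 of 10 were called, both higher. MAX, the DNA-binding partner of MGA and MYC, had 37.99 ± 3.78 CPM in controls and 92.8 ± 8.42 CPM in treated libraries (SD, n = 4 each; log2 fold change 1.29, limma adjusted p = 1.97e-05), and MGA rose by 0.54. Of 6 genes for the turnover of E2F and RB pathway proteins 3 were called lower, among them SKP2, which marks CDK inhibitors and E2F1 for degradation (-0.90), and CCNF (-1.12), and with TMM 2 were called lower and 1 higher.

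In the lists of E2F G1/S targets and of mitotic FOXM1 targets, most genes were called lower in the main fit. Of 20 E2F targets of the G1/S transition 17 were called lower and none higher, with a median log2 fold change of -0.97, and 19 were lower in all 4 pairs. MCM5, a subunit of the replicative helicase, stood at 48.3, 43.2, 56.6 and 50.6 CPM in controls A to D and at 19.1, 18.9, 20.1 and 24.5 CPM in cytokine libraries A to D (log2 fold change -1.26, limma adjusted p = 4.84e-05). UHRF1, which maintains DNA methylation, fell by 1.66 on the log2 scale (limma adjusted p = 0.00269). With TMM 14 of 20 were called lower. The count on the CPM scale was 8 without control C, 7 without control D and 8 without cytokine library A or B.

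Of 17 mitotic targets of FOXM1 all 17 were called lower, with a median log2 fold change of -1.35, and 12 were with TMM. CCNB2, a cyclin of mitosis, fell by 1.59, TOP2A, which untangles chromosomes, fell by 1.61 and AURKA, a spindle kinase, fell by 1.07 on the log2 scale. MKI67, a proliferation marker, stood at 39.7, 55.7, 27.1 and 77.9 CPM in controls A to D and at 23.6, 21.98, 7.95 and 27.4 CPM in cytokine libraries A to D. Control C was the lowest control for MKI67 as for FOXM1. The summed level of the 4 proliferation markers, MKI67, TOP2A, CDK1 and CCNB1, which are all among the 17, was 75.4 to 202 CPM in controls and 24.4 to 66.0 CPM with cytokines. Fewer dividing cells and less RNA per cell cannot be told apart here, and the part of the marker level in the changes of E2F1, E2F2 and FOXM1 was not tested.

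Of 7 apoptosis genes known as E2F1 targets, 4 were called higher and 2 lower. PMAIP1, a BH3-only protein, had 19.97 ± 6.99 CPM in controls and 57.2 ± 20.1 CPM in treated libraries (SD, n = 4 each; log2 fold change 1.52, limma adjusted p = 0.00241). BCL2L11, another BH3-only protein, rose by 0.51, whereas TP73 fell by 0.91 and APAF1, the apoptosome scaffold, by 0.81. This list therefore did not share the direction of the G1/S and mitotic lists. The counts of all lists stand beside 17.5% of all genes called lower and 9.52% called higher.

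**Figure D5:**
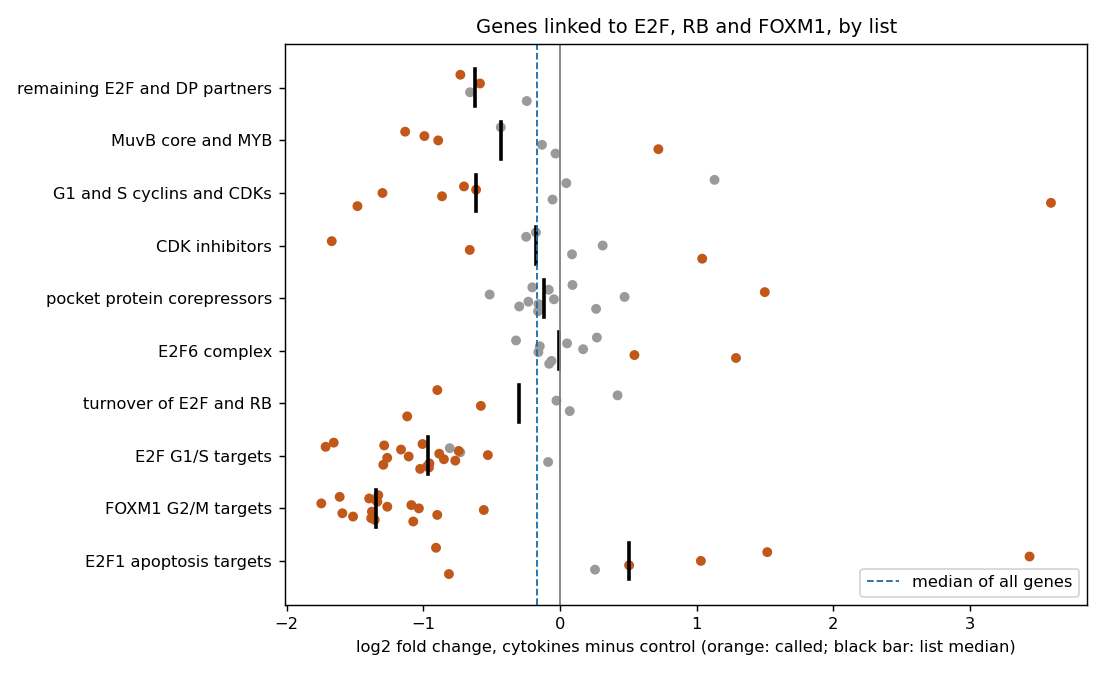
Log2 fold change, cytokines minus control, of every listed gene in 10 gene lists (orange, called; grey, not called), with the list median as a black bar and the median of all genes, -0.17, as a dashed line. All genes of the FOXM1 list and 17 of 20 of the E2F G1/S list are called lower, and the E2F1 apoptosis list spreads to both sides of 0.

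By Pearson correlation of log2(CPM + 0.1) over the 8 libraries, among 14682 genes of at least 1 CPM on average, the genes most like E2F1 were CARS2 (r = 0.996), TNS2-AS1 (0.996), PRTFDC1 (0.995), ADARB2 (0.994) and PRMT7 (0.993). Those most like FOXM1 were CROCCP3 (0.997), TROAP (0.993), PABPC1L (0.993), NRBP2 (0.991) and PLEKHH1 (0.989). The 8 points share the treatment and the series, so that these values describe the pattern over libraries.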

How the data were processed

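RNA of 4 control and 4 cytokine-treated EndoC-βH5 cultures had been sequenced as 100 bp paired-end reads from a strand-specific kit. The authors cleaned reads with SOAPnuke, aligned them with TopHat 2.1.1 to GRCh38, counted them with htseq-count 0.9.1 at default settings on Ensembl 107 genes, removed genes that did not exceed 0.5 CPM in 4 or more samples, and deposited the rest as CPM. The strand setting of the kit against the counter is not given in the sources used here. A further 4 columns of values were not used. Every CPM value was a whole multiple of 1 read (100%, tolerance 0.05 reads), which gave back the reads and a floor of 3 reads, 0.0587 to 0.0641 CPM. The floor and the interval of the CCND1 ratio cover counting error only, and the other intervals come from the spread between libraries.

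Tests were run in R 4.3.3 with limma 3.58.1 (log2 of CPM + 0.1, intensity trend, no block) over 16525 genes, with called genes past 0.5 in absolute log2 fold change and 0.05 in FDR. The study's own test was edgeR's on counts; edgeR 4.0.16 and DESeq2 1.42.0 on recovered reads, other scalings, pseudocounts of 0.5 and 1, a mean of 1 CPM, leaving out each library and the pairs as a block were alternatives. Deviations from the group means correlated within pairs A to D by 0.574, 0.590, 0.797 and 0.741. The pairs, taken from the column names, were used as a block in alternative fits only. The main fit and the permutation tests took no account of the pairs. A and B were not told apart (0.571 and 0.595 when crossed). No library was a copy of another (mean chi-square per gene of 6.06 for cytokine libraries A and B, the lowest within a condition). The value was 13.4 for controls A and B and 75.2 to 296 between all other libraries of a condition. Libraries A and B thus lay closest to each other in both conditions, and the tests without a block counted them as separate libraries. TPM used GENCODE 29 exon lengths, found for 97.8% of genes. Tables were made with Python 3.11.15 and pandas 2.3.3, exact permutation tests with scipy 1.17.1. The tests were checked on simulated data, in which DESeq2 made more false calls than limma or edgeR. The simulated counts held 200 changed genes and no pairs or series, so that this order was not checked for data with such structure.

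The members, lists and tests were chosen with earlier results of these data known. Genes named are the 10 members, and from each list the 3 of highest CPM and up to 3 called genes in each direction with the smallest adjusted p, some of which are left out for length or are not reported here. For E2F1 and FOXM1 the 5 genes most correlated were named.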

Additional observations from a re-analysis of the deposited data

Results flagged for a closer look

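The FOXM1 level in control library C, 17.6 CPM, lay far from those of the other 3 controls, of which the nearest was 37.6 CPM. The gap was 0.911 of the range of the 4 controls, above Dixon's 95% critical value for 4 samples. It was 1 of 20 groups of 4 libraries tested, and chance flags about 1 in 20. FOXM1 was also lowest in cytokine library C, at 5.64 CPM, and its log2 fold change was -1.55 without control C (limma adjusted p = 0.0123) and -0.86 without cytokine library C (limma adjusted p = 0.0452), the ends of the range over single libraries left out.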

How the results depend on the processing

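Over 22 alternatives E2F1, E2F2 and E2F5 were called in every one, FOXM1 in 13, RBL1 in 6 and RBL2 in 1, the one without a fold minimum, and the number of members called ranged from 3 to 6. The adjusted p of FOXM1 was above 0.05, with its log2 fold change still past the minimum, with median-of-ratios scaling (-1.10, adjusted p = 0.0744), quantile normalization (-1.17, 0.0593), no intensity trend (-1.27, 0.0506) and edgeR with TMM (-1.05, 0.0731), besides the settings given above. RBL1 was called with median-of-ratios scaling (0.57), edgeR with TMM (0.56) and DESeq2 (0.57). The sign of E2F3 turned with TMM (0.0638), median-of-ratios scaling (0.0737), quantile normalization (0.0436), edgeR with TMM (0.0585, and 0.0631 with the replicate block) and DESeq2 (0.0693), and leaving out single libraries gave -0.22 to 0.0288, the latter without control C. The difference in the E2F5 change between series turned to 0.0427 with edgeR. Without length correction, in CPM, the E2F1 share was 30.02% in controls and 11.3% with cytokines. With the replicate block, 5852 genes were called by limma, against 4470 without it, and in limma the block changed no call among the 10 genes, but in the pathway lists it added E2F8, CDK6, RBBP7, PCNA and RRM1. EdgeR with TMM and the block called 5 members, among them RBL1 and FOXM1, of which edgeR with TMM alone did not call FOXM1. Leaving out 1 library gave 3899 to 4339 called genes. The cause of these changes was not tested. With 4 libraries per group, the intervals of E2F3, E2F4 and E2F6 reach up to 0.36, 0.45 and 0.78 and that of RB1 down to -0.68 (log2).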
